A study of Mus musculus with 6 samples.

Results

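The genes described here encode the T cell receptor complex and the proteins that mark regulatory T cells: Cd3d, Cd3e, Cd3g, Cd247, Cd4, Lck, Zap70, Foxp3, Il2ra and Ctla4. They were taken by name, and all 10 were found among the 56362 features of each count table. RNA had been sequenced from intestine of BALB/c mice, in 3 wild type (WT) mice and 3 FcεRIα knockout (FC) mice, which lack the alpha chain of the high-affinity IgE receptor. The sources used here give neither the allele nor the age of the mice, nor whether all cells carry the deletion. DSS stands in the sample titles of both genotypes, with no expansion given. The tissue label is intestine, while the series title speaks of epithelial cells. The comparison asks whether T cell and regulatory T cell transcripts in the gut differ between knockout and wild type mice.

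The T cell receptor recognises a peptide on an MHC molecule but has almost no cytoplasmic tail, so it signals through the CD3 delta, epsilon and gamma chains and the zeta chain. The kinase LCK, held at the coreceptors CD4 or CD8, phosphorylates tyrosine motifs in the tails of these chains, and ZAP-70 binds the phosphorylated motifs and passes the signal on. Regulatory T cells depend on the transcription factor FOXP3, carry much CD25 (Il2ra) on their surface and make CTLA-4. They hold back responses to food and microbes in the gut wall.

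The genes of the CD3 gamma, delta and epsilon chains lie side by side on chromosome 9 (GENCODE vM21 on GRCm38). Cd3g (44969572 to 44980431, minus strand) and Cd3d (44981786 to 44987339, plus strand) are read away from each other, with 1355 bases between their annotated starts. Cd3e (44998740 to 45009627, minus strand) ends 11401 bases past the end of Cd3d. Because these neighbours and the zeta chain gene Cd247 varied together across libraries, the 250 bases before their RefSeq starts are shown (GRCm38.p6, 5′ to 3′ on the strand of each gene). Capitals mark matches, on either strand, to short motifs of transcription factor families that act in T cells. The RUNX family, which silences Cd4 in developing CD8 T cells, was searched as TGTGGT. For ETS factors, a large family that includes ETS1 of lymphocytes, the letters were AGGAAG. Factors of the GATA family, of which GATA3 acts in T cells, were searched as AGATAA. The letters for TCF and LEF factors, which act early in T cell development, were CTTTGA. E proteins, which drive receptor gene expression in the thymus, were searched by the E-box CAGNTG. None of these motifs contains another.
Cd3g, chr9:44980432-44980681, minus strand: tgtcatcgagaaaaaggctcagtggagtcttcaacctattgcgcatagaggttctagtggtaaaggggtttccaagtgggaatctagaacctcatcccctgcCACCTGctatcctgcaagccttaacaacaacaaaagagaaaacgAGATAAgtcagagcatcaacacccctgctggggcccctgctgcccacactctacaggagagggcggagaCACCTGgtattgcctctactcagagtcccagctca
Cd3d, chr9:44981536-44981785, plus strand: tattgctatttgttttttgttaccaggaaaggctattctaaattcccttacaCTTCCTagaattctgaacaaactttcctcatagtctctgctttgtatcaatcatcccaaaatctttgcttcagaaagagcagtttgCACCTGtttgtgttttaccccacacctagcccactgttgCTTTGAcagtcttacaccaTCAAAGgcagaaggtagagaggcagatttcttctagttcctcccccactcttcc
Cd3e, chr9:45009612-45009861, minus strand: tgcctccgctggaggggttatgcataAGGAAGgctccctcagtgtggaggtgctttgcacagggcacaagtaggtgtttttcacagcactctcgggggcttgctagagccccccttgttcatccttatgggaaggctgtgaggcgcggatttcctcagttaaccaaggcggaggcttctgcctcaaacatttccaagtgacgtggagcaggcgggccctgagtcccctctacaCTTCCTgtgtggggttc
Cd247, chr1:165788431-165788680, plus strand: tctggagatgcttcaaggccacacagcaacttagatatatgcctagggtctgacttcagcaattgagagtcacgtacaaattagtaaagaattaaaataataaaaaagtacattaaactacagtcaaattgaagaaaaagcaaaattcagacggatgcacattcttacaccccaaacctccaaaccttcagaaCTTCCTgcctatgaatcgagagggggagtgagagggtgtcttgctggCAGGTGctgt

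RefSeq windows were found for 9 of the 10 members, 13 windows in all because Lck, Zap70 and Foxp3 have more than 1 start. The ETS letters stood in 10 of these 13 windows (76.9%), against 29.5% of all 32851 mouse windows of this length. The E-box letters stood in 9 (69.2%, against 44.8%). RUNX, GATA and TCF/LEF letters stood in 2 windows each (15.4%), against 14.05%, 9.99% and 13.8% of all windows. Both starts of Lck held the ETS letters, as did 2 of the 3 starts of Zap70 and 1 of the 2 starts of Foxp3. The 4 chains shared no single motif: ETS letters stood before Cd3d, Cd3e and Cd247, and Cd3g had GATA and E-box letters only. These are matches of letters in a window and say nothing about which factor was bound.

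Libraries held 19031833 to 23092382 counts, and levels are given as CPM, counts relative to the library total after scaling by TMM factors. Markers of epithelium were abundant, 10 genes summing to 13074 to 27279 CPM in wild type and 20162 to 24132 CPM in knockout libraries. T cell genes were scarce beside them, with 28 to 895 counts per member and library. The targeted gene Fcer1a was counted 0, 10, 18 times in wild type libraries 1 to 3 against 1, 0, 0 times for the knockout, so by this gene the label of wild type library 1 cannot be checked. Over all genes, wild type library 1 stood apart: mt-Co1, a mitochondrial gene, took 6.83% of its counts against 1.45% to 2.28% elsewhere, and 4345 genes had an unadjusted p under 0.05 by edgeR without it, against 1145 with it. For the T cell genes, wild type library 3 stood apart. The name of its deposited file also carries a library identifier with another letter than in the other 5 files, and the sources do not say what the letter means. Fold changes and list medians of the members are therefore given with and without it. The library was singled out by these same levels, so leaving it out is bound to raise the members' fold changes and is no independent check.

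All 10 members were highest in wild type library 3, and the 2 genotypes overlapped in every one of them. The members were at 1.83 to 3.06 times the median of the other 5 libraries there, while the median over the 16732 tested genes was 0.98 times, and 13.9% of tested genes were highest in that library. Knockout library 2 came next in 8 of the 10 members and wild type library 1 in the other 2, Cd3d and Cd3g. The lowest library was wild type library 2 in 7 members and knockout library 3 in 3. Wild type mice thus held both the highest and, for most members, the lowest levels of the study.

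**Figure D1:**
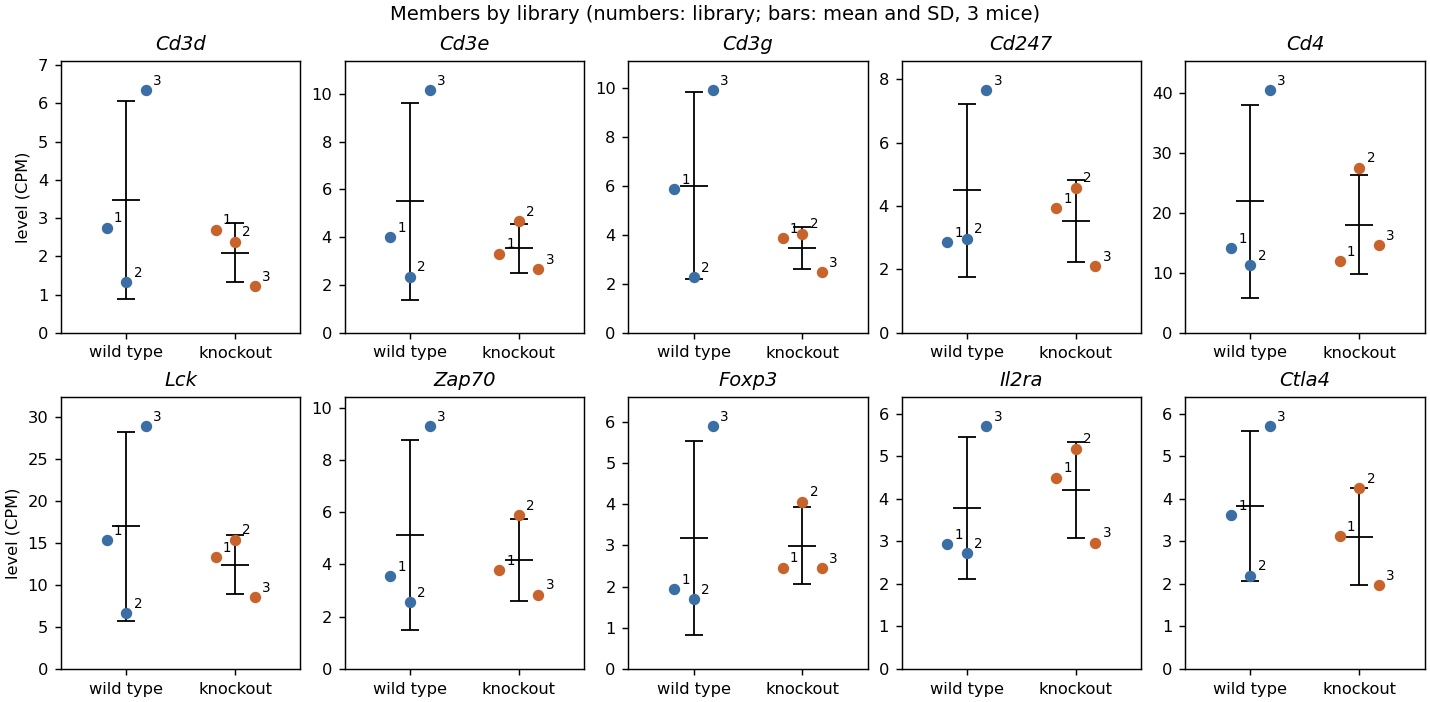
Level of each member in CPM (linear axis from 0) in the 3 wild type (blue) and 3 knockout (orange) libraries; the numbers name the library and the bars give mean and SD over 3 mice. Wild type library 3 lies above all others in each panel, as for Lck at 28.85 CPM, and no panel separates the genotypes.

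Among the receptor chains, Cd3e, the chain that pairs with both delta and gamma, was at 3.99, 2.35, 10.1 CPM across wild type libraries 1 to 3, against 3.31, 4.67, 2.66 CPM across knockout libraries 1 to 3. The knockout libraries lay between the lowest and the highest wild type library. Cd3g was at 5.86, 2.27, 9.92 CPM for wild type versus 3.88, 4.06, 2.49 CPM for knockout. Cd3d was at 2.74, 1.32 and 6.34 CPM against 2.70, 2.38 and 1.22 CPM. In Cd3d, knockout library 3 alone lay below the wild type range, at 28 counts, and Cd3g had no knockout library outside that range. Cd247, whose zeta chain brings most of the signalling motifs of the complex, was at 2.87, 2.97, 7.65 CPM for wild type versus 3.93, 4.57, 2.09 CPM for knockout. It parted from the other chains in that 2 of the 3 knockout libraries lay above wild type libraries 1 and 2, and the remaining one below all wild type libraries. Cd247 overlaps Pou2f1 on the opposite strand, and reads of the 2 cannot be told apart where the strand setting is not known.

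The log2 fold changes of knockout over wild type were -0.79 for Cd3g (SE 0.55, 95% interval -2.11 to 0.53), -0.72 for Cd3d (SE 0.64, -2.25 to 0.80), -0.63 for Cd3e (SE 0.58, -2.02 to 0.75) and -0.35 for Cd247 (SE 0.52, -1.61 to 0.90). None passed edgeR's quasi-likelihood test, with adjusted p from 0.813 to 0.890. Without wild type library 3 the values were -0.22 (SE 0.53), 0.06 (SE 0.57), 0.17 (SE 0.46) and 0.28 (SE 0.47) in the same order. The direction of 3 of the 4 chains therefore depended on that library being included. It was the highest library for all 4, so a shift upward without it was built in. In bulk tissue, fewer T cells and less RNA per T cell cannot be told apart.

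Lck, the kinase that starts receptor signalling, was at 15.3, 6.65, 28.85 CPM for wild type versus 13.3, 15.4, 8.55 CPM for knockout. All 3 knockout libraries lay within the wild type range. Zap70 was at 3.55, 2.56, 9.28 CPM for wild type versus 3.78, 5.88, 2.83 CPM for knockout, also within the wild type range. Their log2 fold changes were -0.45 (SE 0.53, 95% interval -1.71 to 0.81) and -0.30 (SE 0.56, -1.65 to 1.05), with adjusted p of 0.871 and 0.916 by edgeR. Both were positive without wild type library 3, at 0.18 (SE 0.46) and 0.45 (SE 0.47).

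Cd4, the coreceptor of helper and regulatory T cells, was at 14.2, 11.3, 40.5 CPM for wild type versus 12.0, 27.6, 14.7 CPM for knockout. Its knockout libraries again lay within the wild type range, and its log2 fold change was -0.28 (SE 0.56, 95% interval -1.62 to 1.06, adjusted p = 0.921 by edgeR). With wild type library 3 left out it was 0.51 (SE 0.42). Some macrophages of the mouse gut carry CD4 as well. Of 10 markers of macrophages and dendritic cells, 8 were highest in knockout library 2, and no library had a marker at 0. They summed to 445, 256, 465 CPM for wild type versus 293, 654, 362 CPM for knockout. Csf1r, the receptor macrophages need to survive, was at 29.0, 37.8, 101 CPM for wild type versus 40.1, 154, 61.9 CPM for knockout. Wild type library 3 and knockout library 2 were thus the highest libraries for both Csf1r and Cd4, in opposite order. This was not particular to Cd4, as knockout library 2 came next after wild type library 3 in 8 of the 10 members. The part of macrophages in the Cd4 level was not tested.

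Foxp3 was at 1.93, 1.69, 5.89 CPM for wild type versus 2.46, 4.06, 2.44 CPM for knockout. All 3 knockout libraries lay above wild type libraries 1 and 2 and below wild type library 3. Il2ra, the alpha chain of the IL-2 receptor, was at 2.93, 2.73 and 5.71 CPM against 4.49, 5.18 and 2.97 CPM, with the same order of the groups. Ctla4, an inhibitory receptor that competes with CD28 for its ligands, was at 3.62, 2.19, 5.71 CPM for wild type versus 3.12, 4.25, 1.96 CPM for knockout. Unlike Foxp3 and Il2ra, Ctla4 had a knockout library below the whole wild type range.

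The log2 fold changes of the 3 genes were -0.09 for Foxp3 (SE 0.57, 95% interval -1.46 to 1.28), 0.15 for Il2ra (SE 0.42, -0.85 to 1.16) and -0.30 for Ctla4 (SE 0.48, -1.45 to 0.85). Their adjusted p by edgeR were 0.978, 0.944 and 0.898. Il2ra was the single member with a positive value. Leaving out wild type library 3 gave 0.72 (SE 0.45), 0.58 (SE 0.41) and 0.11 (SE 0.50), with adjusted p of 0.913, 0.913 and 0.978 by edgeR. Foxp3 overlaps Ccdc22, Ppp1r3f and Gm36995 on the opposite strand and Flicr on its own. Ccdc22 had 256, 443, 420 counts for wild type versus 325, 259, 421 for knockout. Ppp1r3f had 27, 45, 55 against 56, 43, 32 and Gm36995 25, 51, 4 against 12, 0, 24. Flicr had 0, 3, 6 against 1, 2, 3, so it was highest in wild type library 3. The part of these genes in the Foxp3 counts was not tested.

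**Figure D2:**
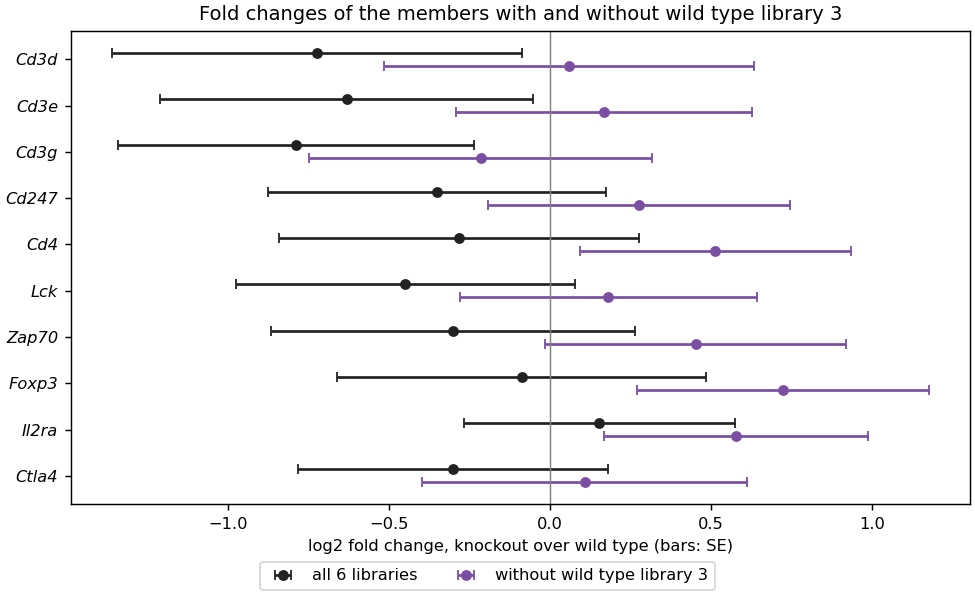
Log2 fold change of knockout over wild type for each member from edgeR, with SE bars, for all 6 libraries (black) and without wild type library 3 (purple). With all libraries 9 of 10 points lie below 0, and without wild type library 3 9 of 10 lie above 0, where Cd3g at -0.22 is the exception. Wild type library 3 was the highest library of every member, so a shift upward without it was built in.

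Counted together, 9 members had a negative and 1 a positive fold change, with a median of -0.33, beside a median of -0.05 and 55.8% negative among all tested genes. By edgeR 0 of the 10 passed at an adjusted p under 0.05, where 0% of all tested genes did. At an unadjusted p under 0.05 it was 0 of the 10, against 6.84% of all tested genes. DESeq2 called 0 of the 10 and 0.824% of the genes to which it gave an adjusted p, and limma-voom called 0. In 0 of the 10 did the knockout libraries lie all above or all below the wild type libraries, which 8.74% and 4.27% of tested genes did. Leaving out wild type library 3 turned the count to 9 positive and 1 negative, with a median of 0.23, and without wild type library 1 all 10 were negative with a median of -0.58. The median was -0.61 without wild type library 2, and -0.44, -0.68 and -0.12 without knockout library 1, 2 or 3. All 10 were also negative without wild type library 2 and without knockout library 2. The intervals above reach past a 2-fold difference on at least 1 side for every member, so a difference of that size lay within the precision of 3 mice per group.

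Corrected for gene length (TPM, which divides counts by the gene's length and scales each library to the same sum), Lck and Cd4 were the most abundant members, with means over the 6 libraries of 13.3 and 12.4 TPM. Cd247 and Cd3g followed at 9.45 and 8.68 TPM, Cd3e at 5.91, Zap70 at 3.95, Ctla4 at 3.36 and Cd3d at 3.27 TPM. Il2ra and Foxp3 were lowest at 1.71 and 1.65 TPM. Each neighbouring pair in this order overlapped in range across libraries, as Lck at 6.97 to 30.3 TPM and Cd4 at 6.08 to 28.4 TPM did. Within libraries Cd3e held rank 5 of the 10 in all 6, while Il2ra and Foxp3 took the last 2 places in all 6.

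To see the makeup of the T cell signal rather than its size, single genes were set against the summed counts of Cd3d, Cd3e and Cd3g in the same library, which held 144 to 583 counts. Foxp3 stood at 15.3, 28.5, 22.3 counts per 100 CD3 counts for wild type versus 24.9, 36.6, 38.4 for knockout. Knockout libraries 2 and 3 were above all wild type libraries, and knockout library 1 was below wild type library 2. The mean was 22.0 ± 6.57 (SD, n = 3) in wild type and 33.3 ± 7.32 in knockout gut. For Il2ra the ratios were 23.3, 45.8 and 21.6 against 45.5, 46.6 and 46.6. The 3 knockout libraries thus lay close together, with wild type library 2 beside them and wild type libraries 1 and 3 far below. They lay closer than counting error, with 95% exact binomial intervals of 35.3 to 58.2, 36.9 to 58.7 and 34.4 to 62.5. Over Cd3e alone the Il2ra ratios were 73.4, 116 and 56.3 for wild type versus 136, 111 and 111 for knockout.

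Cd4 stood at 112, 190, 154 counts per 100 CD3 counts for wild type versus 122, 248, 230 for knockout. For Ctla4 the ratios were 28.7, 36.8 and 21.6 against 31.6, 38.2 and 30.8. Cd8a, the CD8 alpha chain of cytotoxic and intraepithelial T cells, was at 22.8, 34.0 and 22.5 against 19.1, 29.4 and 32.9. The genotypes overlapped in all 5 ratios to the summed CD3 genes. Over Cd3e alone they did not overlap for Foxp3, with 48.4, 71.9, 58.0 counts per 100 Cd3e counts for wild type versus 74.3, 87.0, 91.8 for knockout. The exact permutation p there was 0.10, the smallest this design can give. It was not adjusted over the 5 genes and 3 denominators tried. The nearest libraries, wild type library 2 at 71.9 and knockout library 1 at 74.3, rested on 41 and 52 Foxp3 counts. No other gene and denominator reached a p of 0.10 with all 6 libraries. Over summed Trac, Trbc1 and Trbc2 the genotypes overlapped for Foxp3, at 9.75, 19.6, 17.8 against 17.0, 21.4, 28.9 (exact permutation p = 0.30). Geometric means of the ratios to the summed CD3 genes differed by a factor of 1.62 for Il2ra, 1.53 for Foxp3, 1.29 for Cd4, 1.18 for Ctla4 and 1.02 for Cd8a, knockout over wild type. Exact permutation tests of the log2 ratios, two-sided, gave p = 0.20, 0.20, 0.40, 0.40 and 1 in that order, or 0.50, 0.50, 0.50, 0.50 and 1 adjusted over the 5 ratios, where 3 against 3 cannot go below 0.10. The factors for Il2ra and Foxp3 were 1.42 and 1.56 without wild type library 3. For Cd8a the factor was 0.95 without it. With single libraries left out, the Foxp3 factor ran from 1.30 (without wild type library 1) to 1.77 (without wild type library 2). The Il2ra factor ran from 1.42 (without wild type library 3) to 2.06 (without wild type library 2). The Cd4 factor was also lowest without wild type library 1. Counting error alone was wide, with a 95% exact binomial interval of 10.2 to 22.5 for Foxp3 in wild type library 1 and 27.7 to 52.5 in knockout library 3.

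**Figure D3:**
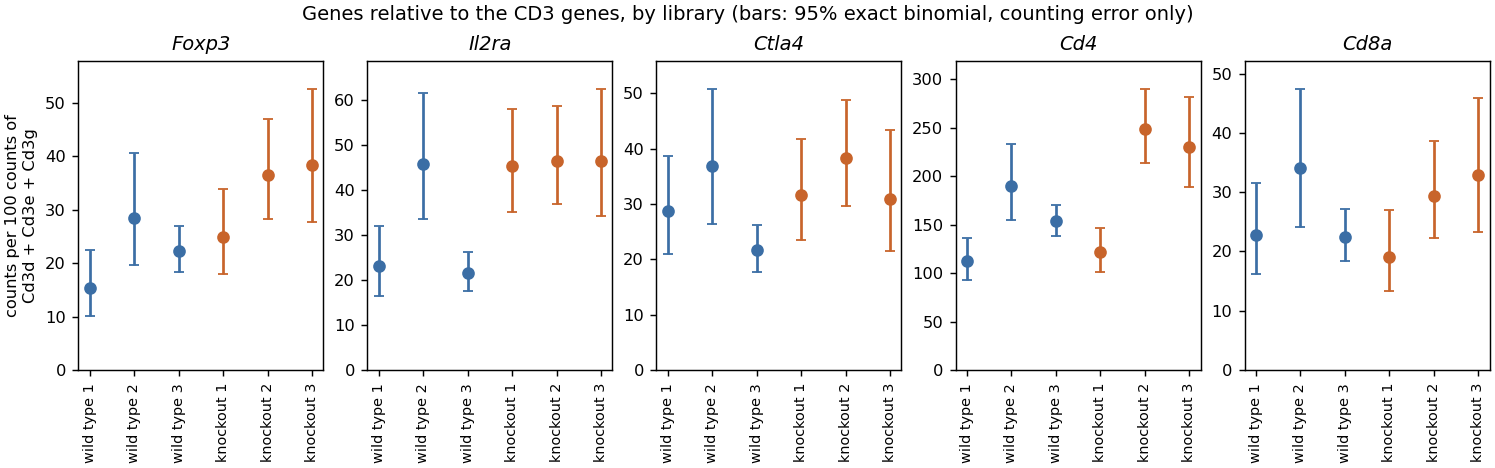
Counts of 5 genes per 100 counts of the 3 CD3 genes in each library (linear axis from 0), wild type in blue and knockout in orange, with 95% exact binomial intervals that cover counting error only. For Il2ra, wild type libraries 1 and 3 lie at 23.3 and 21.6 and the other 4 libraries between 45.5 and 46.6. Counting error is wider than this closeness, as at 34.4 to 62.5 in knockout library 3.

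Of 7 tested constant region genes of the receptor, 5 were lower and 2 higher in knockout gut (median -0.45, and -0.10 without wild type library 3). Trac, the alpha chain constant gene, was at 3.99, 1.78, 7.97 CPM for wild type versus 2.84, 3.41, 1.74 CPM for knockout. Trdc, of the delta chain, was at 0.75, 1.20, 1.31 CPM for wild type versus 0.38, 0.93, 0.52 CPM for knockout. Wild type library 2, the lowest for most members, was thus close to the highest for Trdc. Trgc4, of a gamma chain, was instead highest in knockout library 2 at 2.19 CPM, against 0.52 to 1.31 CPM in the other libraries. Trbc1 and Trbc2 are near-identical copies between which reads can be divided.

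Of 27 tested signalling and surface genes of T cells, 25 were lower and 2 higher (median -0.26), and 25 were highest in wild type library 3. Those of smallest p were Cd27, a costimulatory receptor, at -1.43 (SE 0.65), Ptpn22, a phosphatase that damps receptor signals, at -0.54 (SE 0.33), and the kinase gene Fyn at -0.60 (SE 0.41). Of the 27, 19 were higher and 8 lower without wild type library 3, with a median of 0.26, and the median was -0.57 without wild type library 1. The 9 tested markers of naive and recirculating T cells were all lower (median -0.54), and without wild type library 3 4 were higher and 5 lower (median -0.18), while the median was -0.85 without wild type library 1. Not a single gene of these 3 lists passed edgeR's test, reached an unadjusted p under 0.05 or parted the genotypes.

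Of 15 tested regulatory T cell genes other than the members, 13 were lower and 2 higher (median -0.37), or 9 lower and 6 higher without wild type library 3 (median -0.08). Tnfrsf9, which encodes the receptor 4-1BB of activated T cells, was at 2.49, 5.70, 6.16 CPM for wild type versus 2.27, 1.63, 1.83 CPM for knockout. Its highest knockout library was below its lowest wild type library, a log2 fold change of -1.32 (SE 0.44, adjusted p = 0.687 by edgeR), and -1.10 (SE 0.49) without wild type library 3. It was the only gene of the 15 to part the genotypes, while 4.27% of all tested genes lay lower in every knockout library. The anti-inflammatory cytokine gene Il10 was at 1.25, 0.496 and 0.725 CPM against 0.520, 0.560 and 0.436 CPM, with 20 counts or fewer per library.

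Genes of CD8 and intraepithelial T cells were split, 7 higher and 5 lower (median 0.15). Leaving wild type library 3 out, 11 were higher and 1 lower, with a median of 0.97, and without wild type library 1 it was 6 and 6, with a median of -0.07. The chemokine gene Xcl1 was at 0.19, 0.25, 0.50 CPM for wild type versus 0.95, 1.68, 0.65 CPM for knockout, so its lowest knockout library was above its highest wild type library (log2 fold change 1.78, SE 0.59, adjusted p = 0.687 by edgeR). Itgae, the integrin that holds T cells in the epithelium, was at 2.74, 2.93 and 9.06 CPM against 5.11, 13.96 and 7.94 CPM, a log2 fold change of 0.87 (SE 0.60), or 1.67 (SE 0.52) without wild type library 3. Itgae is also made by regulatory T cells and some dendritic cells of the gut. Of the 10 macrophage and dendritic cell genes, 8 were higher and 2 lower (median 0.23, 0.99 without wild type library 3 and 0.06 without wild type library 1). Itgax, an integrin of dendritic cells and macrophages, had their smallest p at 0.94 (SE 0.43), with overlapping genotypes. The dendritic cell gene Xcr1, whose product is the receptor for XCL1, parted the genotypes too, at 0.81, 0.29, 1.63 CPM for wild type versus 1.80, 4.20, 1.83 CPM for knockout. Xcl1 was thus 1 of 12 genes and Xcr1 1 of 10 on their lists to lie higher in every knockout library. Of all tested genes 8.74% did so.

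Of the T helper regulators and cytokines, 8 of 15 had enough reads to be tested, with 2 higher and 6 lower (median -0.27), or 5 higher and 3 lower without wild type library 3 (median 0.02). Ifng was the one of smallest p, with 0, 2, 1 counts for wild type against 14, 12, 11 for knockout (adjusted p = 0.683 by edgeR). The regulator Tbx21 of type 1 helper T cells was at 0.87, 0.74 and 1.63 CPM against 0.80, 1.91 and 0.87 CPM, so the genotypes overlapped in it. Of 9 tested genes of NK and innate lymphoid cells, 3 were higher and 6 lower (median -0.09, 0.06 without wild type library 3 and -0.28 without wild type library 1). Il1rl1, the IL-33 receptor, had the smallest p of these, at 13.1, 189, 115 CPM for wild type versus 9.79, 4.85, 37.7 CPM for knockout, a log2 fold change of -2.60 (SE 1.09, adjusted p = 0.726 by edgeR), with overlapping genotypes. The wild type mean of Il1rl1 was 106 CPM, against 18.6 CPM for Kit and 0.47 CPM for Ncr1 on the same list. Which cells made Il1rl1 was not tested. Ncr1, an NK cell receptor, parted the genotypes at 1.43 (SE 0.64). Ifng was thus 1 of 8 tested genes and Ncr1 1 of 9 on their lists to lie higher in every knockout library, beside 8.74% of all tested genes. Ifng passed the filter on low counts through its knockout libraries alone, and Xcl1 through these and 1 wild type library, so with these wild type counts neither could have been tested without higher knockout counts.

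Across all tested genes, the profile of Cd3d, Cd3e, Cd3g, Cd247, Lck and Zap70 over the 6 libraries (each gene's log2 CPM relative to its own mean) was 0.05, -0.73, 1.21 for wild type versus -0.04, 0.20, -0.69 for knockout. The members themselves differed from it by a root mean square of 0.12 (Cd3e) to 0.39 (Il2ra), with Lck at 0.13, Ctla4 at 0.20, Foxp3 at 0.35 and Cd4 at 0.36. Genes that make up the profile, such as Cd3e and Lck, are compared in part with themselves, which draws them nearer to it. Ctla4 was therefore nearer to the receptor genes than Foxp3 and Il2ra were. The 10 other named genes closest to the profile, of 13449 compared, were Tnfrsf4, Cnr2, Cd69, Trac, Lat, Cxcr4, Sash3, Napsa, Rasal3 and Treml2, at 0.13 to 0.18. Tnfrsf4, itself on the list of other regulatory T cell genes, encodes the costimulatory receptor OX40, Cd69 an early activation and residence marker, Lat the adaptor phosphorylated by ZAP-70, and Cxcr4 a chemokine receptor of lymphocytes.

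B cell markers, 11 genes, had mean profiles of 0.74, -1.27, 1.01 for wild type versus 0.42, -0.07, -0.83 for knockout, and summed to 93.8 to 398 CPM in wild type and 114 to 261 CPM in knockout libraries, with no marker at 0. All 11 were lower in knockout gut (median -0.51, -0.19 without wild type library 3 and -0.33 without wild type library 1), and none passed edgeR's test. They thus shared the high level of wild type library 3 and the low levels of wild type library 2 and knockout library 3, but were also high in wild type library 1. Stromal and vessel markers, 10 genes, were at -1.46, 0.80 and 1.06 against -0.94, 0.50 and 0.05, and summed to 517 to 4121 CPM in wild type and 961 to 2608 CPM in knockout libraries. Of the stromal markers 9 were lower and 1 higher (median -0.56, -0.004 without wild type library 3 and -1.05 without wild type library 1), and of 7 tested mast cell genes 6 were lower and 1 higher (median -0.64, or -0.23 and -1.15 in the same order). Epithelial markers, 9 higher and 1 lower in knockout gut (median 0.37, or 0.15 and 0.70), were lowest in wild type library 3, at -0.56. Relative to Ptprc, the gene of the pan-leukocyte protein CD45, the CD3 genes stood at 20.4, 13.5, 24.8 counts per 100 for wild type versus 15.7, 13.3, 15.5 for knockout, so the genotypes overlapped there too. The part of these cell types in the levels of the members was not tested.

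**Figure D4:**
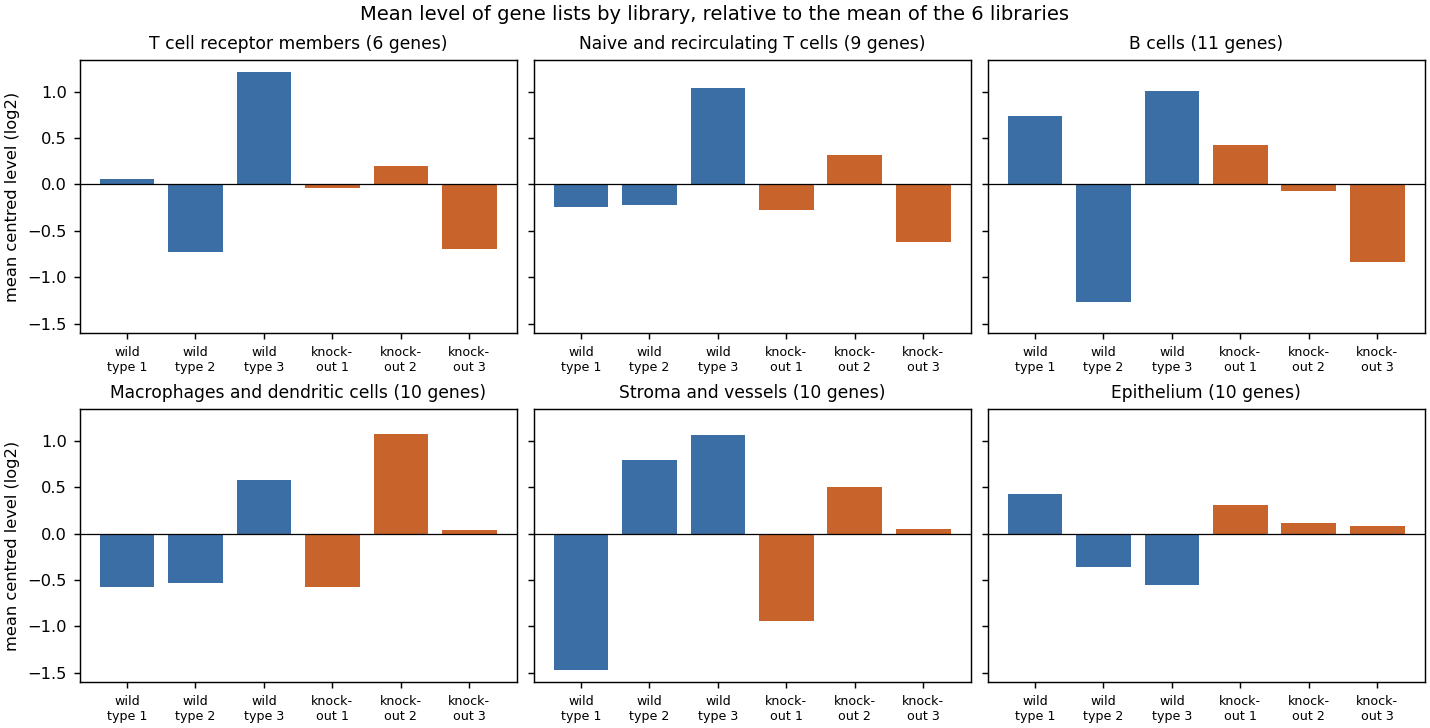
Mean centred log2 level of 6 gene lists in each library, relative to the mean of the 6 libraries (wild type blue, knockout orange; bars start at 0). The T cell receptor members, naive T cell genes, B cell genes and stroma are each highest in wild type library 3, at 1.21, 1.04, 1.01 and 1.06, where epithelium is lowest at -0.56.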

How the data were processed

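The authors deposited estimated counts per gene, 1 table per library, with fractional values in 12.4% to 14.8% of features. Per the submitters' processing notes the work used TopHat2 2.0.0 and the build mm10, with no further roles stated. The counting program was not given in the sources used here, nor was the strand setting. Counts were rounded to whole numbers. Nothing but the design text (3 mice per group) says how mice were kept apart, so p-values measure the spread between these libraries. Knockout was compared with wild type by edgeR 4.0.16's quasi-likelihood test (R 4.3.3, TMM factors, no block), after filterByExpr (minimum count 10) kept 16732 genes and all 10 members. P-values were adjusted by Benjamini-Hochberg over all genes, with a threshold of 0.05. SE is the fold change over the square root of F. Profiles used log2 CPM with a prior count of 2. Intervals and tests of ratios were exact (scipy 1.17.1). No 2 libraries were copies (chi-square per degree of freedom 34.2 or more). On simulated counts for these 16732 genes edgeR found 2% of genes changed 2-fold, 54% at 4-fold, 86% at 8-fold, and called 0.0302% of unchanged genes. DESeq2 1.42.0 and limma 3.58.1 (voom) were alternatives, as were other scaling factors, other filters, omitting single libraries and a block on the replicate number.

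All members were named, with up to 4 genes of smallest p from each marker list, genes there whose genotypes did not overlap, and the 10 genes of smallest root mean square difference from the receptor profile. Tbx21, Ptprc and the genes overlapping Foxp3 were picked with their values in view. The members and lists were chosen with earlier results of these data known. Promoter sequences are RefSeq's (GRCm38.p6), and gene positions GENCODE's (vM21), which held all 10 identifiers.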

Additional observations from a re-analysis of the deposited data

How the results depend on the processing

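With all 6 libraries, 88 of 90 member fold changes under other settings kept their direction. The 2 that reversed were Foxp3 by limma-voom (0.10) and with the replicate number as a block (0.11). No member passed an adjusted p of 0.05 under any setting run; at an unadjusted p under 0.05 Cd3g did without wild type library 2 (adjusted p = 0.9998 by edgeR). Over all genes, edgeR called 0, DESeq2 127, limma-voom 2 and edgeR with no filter on low counts 3. Leaving out 1 library reversed 12 of 60 member values. The log2 fold change then ran from -1.12 to 0.057 for Cd3d, -0.998 to 0.17 for Cd3e, -0.64 to 0.28 for Cd247, -0.77 to 0.51 for Cd4, -0.84 to 0.18 for Lck, -0.68 to 0.45 for Zap70, -0.42 to 0.72 for Foxp3, -0.059 to 0.58 for Il2ra and -0.63 to 0.11 for Ctla4; the upper end of each range was without wild type library 3. The Cd8a to CD3 ratio (log2 difference 0.03) was -0.066 over Cd3e alone, -0.042 over Trac, Trbc1 and Trbc2, and -0.13 to 0.26 with 1 library left out. The cause of these reversals was not tested.

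The replicate numbers of the titles give no pairing: same-numbered libraries correlated at 0.42, -0.13 and 0.0056 in their deviations from the group means, and 1 of the 3 wild type libraries correlated best with its own number. With the replicate block 0 genes were called, as without it. Low counts limit Cd3d and Foxp3 most, with fewest counts of 28 in knockout library 3 and 31 in wild type library 1. The newer form of edgeR's test and the list medians under other settings were added after seeing the data, and 6 of 180 such medians moved by more than 1 SD.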
